A study of Mus musculus with 12 samples.

Results

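The 7 genes described here belong to the switch that controls translation through eIF2 alpha: Impact, the kinase genes Eif2ak1, Eif2ak3 and Eif2ak4, the eIF2 alpha gene Eif2s1, and the phosphatase subunit genes Ppp1r15a and Ppp1r15b. They were taken by name from the 54232 genes of the count table. This functional group was picked after its levels in these libraries had been seen. Levels, differences and calls of its members are therefore given as a description, and no call is a test of them. All 7 passed the filter on low counts that left 14985 genes. RNA was sequenced from 12 libraries, each a pool of a few fluorescent cells picked from retinas of adult male mice recorded as wild type (WT). An adeno-associated virus of serotype AAV2 was injected into the vitreous, and the optic nerve was crushed, an injury that cuts the axons of retinal ganglion cells. The 4 groups of 3 libraries were AAV-Olig1 at day 7 after the crush, AAV-GFP at day 7, AAV-Olig1 at day 14 and AAV-GFP at day 14. Olig1 is a transcription factor of the oligodendrocyte lineage and GFP a fluorescent protein, which served as the control. A virus time of 14 days was recorded for all 4 groups, every group had the crush, and an uninjured group was not analysed here. Cells were enriched with beads against CD90.2 and picked under fluorescence, within 10 to 20 cells a pool as the labels variously put it. The promoter that drives the transgene is not given in the sources used here. Separate animals are not recorded for the libraries of a group, so any p-value measures how far these libraries spread, and part of that spread may be technical.

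eIF2 delivers the initiator tRNA to the ribosome, and phosphorylation of its alpha subunit slows most translation while a few mRNAs, that of the transcription factor Atf4 among them, are translated better. Each kinase answers to its own stress: Eif2ak4 encodes GCN2, which is activated by uncharged tRNA with the help of GCN1, Eif2ak3 encodes PERK, which answers to unfolded protein in the endoplasmic reticulum (ER), and Eif2ak1 encodes HRI, which answers to a lack of haem and to mitochondrial stress. IMPACT, abundant in neurons of the mouse brain, competes with GCN2 for GCN1 and so holds GCN2 down, whereas the products of Ppp1r15a (GADD34) and Ppp1r15b (CReP) bring protein phosphatase 1 to eIF2 alpha to remove the phosphate. The pathway and its late target Ddit3 (CHOP) are known to be engaged in retinal ganglion cells after optic nerve injury. RNA counts do not measure the phosphorylation itself.

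Impact (ENSMUSG00000024423, chromosome 18, 12955852 to 12992950, plus strand, GRCm38) was the most abundant of the 7 per kilobase of exon in every library, and it separated the virus groups at both days. Its level ran from 13.6 to 434 CPM per kb over the 12 libraries, where CPM are counts scaled to the library total, and that of Eif2s1, the next, from 2.85 to 17.9 CPM per kb. Impact stood at 2228, 877 and 435 CPM in the Olig1 day 7 libraries (replicates 1, 2 and 3), against 146, 82.5 and 69.8 CPM in the GFP day 7 libraries. At day 14 it stood at 1082, 1009 and 1209 CPM in the Olig1 libraries, against 322, 638 and 411 CPM in the GFP libraries. Every Olig1 library lay above every GFP library of its day, and the GFP day 7 libraries were the lowest of all 12. Means were 1179.9 ± 934 CPM in Olig1 and 99.3 ± 40.6 CPM in GFP at day 7, and 1100.2 ± 101 CPM in Olig1 and 457 ± 163 CPM in GFP at day 14 (SD, n = 3 each). In the order of means, Olig1 day 7 and Olig1 day 14 overlapped, while Olig1 day 14 stood clear of GFP day 14 and GFP day 14 stood clear of GFP day 7.

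**Figure D1:**
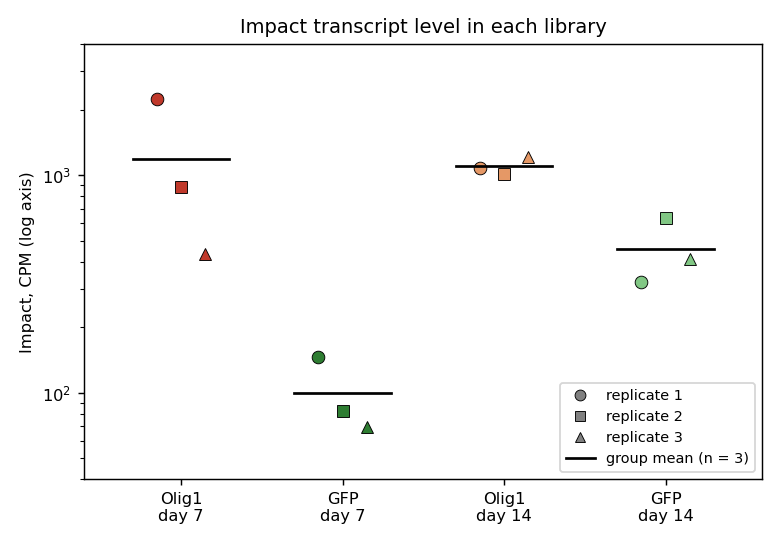
Impact in CPM on a log axis for each of the 12 libraries; marker shape gives the replicate and bars the group mean (n = 3). The 3 Olig1 libraries lie above the 3 GFP libraries at each day, and the GFP day 7 libraries, from 69.8 to 146 CPM, are the lowest.

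The fitted log2 difference of Impact, Olig1 over GFP, was 3.76 ± 0.59 (SE) at day 7 and 1.23 ± 0.54 at day 14, and the day 14 difference minus the day 7 difference was -2.53 ± 0.76. Within GFP pools, day 14 over day 7 gave 2.55 ± 0.56, with no overlap of the libraries; within Olig1 pools it gave 0.01 ± 0.53, with overlap, and this value turned to -0.10 and -0.21 under the other scalings. All of these contrasts, the interaction included, share libraries with one another, so they are not separate pieces of evidence. The GFP libraries held more Impact at day 14 than at day 7, while the Olig1 means of both days were within the spread of their libraries. Impact was among the 34 genes called at day 7 by edgeR's quasi-likelihood test (adjusted p under 0.05, 0.227% of the genes tested). It was not among the 6 called at day 14 (0.04%), the 0 called for the interaction or the 0 called for time within GFP (0.0% each). Impact had been picked with its levels known, so its calls are a description and not evidence of a difference. For the interaction and for time within GFP, edgeR gave 1484 and 1540 genes at an unadjusted p under 0.05, and DESeq2 called 527 and 646. Among alternative fits, Impact was called in 8 of 11 at day 7 and 0 of 11 at day 14. It was called in 0 of 17 for the interaction and 2 of 11 for time within GFP. Leaving out any 1 library kept the day 7 difference of Impact between 3.27 and 4.19, but Impact was no longer among the called genes without GFP day 7 replicate 1 (4.05), replicate 2 (3.74) or replicate 3 (3.54), where the 4-group fit called 1, 9 and 2 genes in all. Of all genes tested, 206 (1.37%) had Olig1 above GFP without overlap at both days, Impact among them.

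Impact also varied less within groups than most genes. Its log2 SD within a group, averaged over the 4 groups, was 0.59, against a median of 1.13 over all genes tested. Those genes were not matched to Impact in level. Scaled to exon length, its level stood between percentiles 96.0 and 99.3 of the tested genes in the Olig1 day 7 libraries and between 82.5 and 90.1 in the GFP day 7 libraries. At day 14 the percentiles ran from 97.9 to 98.6 in Olig1 libraries and from 94.6 to 97.1 in GFP libraries, so Impact was a high-ranking transcript in every pool. The next member by this scale was Eif2s1, between percentiles 69.1 and 86.3 over the 12 libraries. The other members reached at most percentile 72.4, in Olig1 day 7 replicate 1 (Ppp1r15a).

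The makeup of the pools moved with some of these groups. Of 16 ganglion cell markers, 15, 14, 15 and 12 were detected in the Olig1 day 7, GFP day 7, Olig1 day 14 and GFP day 14 groups, with Pou4f3 at 0 throughout, Pou4f2 at 0 in both GFP groups, and Slc17a6 and Pou4f1 at 0 in GFP day 14. Their summed level ran from 3289 to 4978 CPM in Olig1 day 7 libraries and from 219 to 357 CPM in GFP day 7 libraries. It ran from 236 to 3854 CPM in Olig1 day 14 libraries and from 218 to 435 CPM in GFP day 14 libraries. All 12 rod markers were detected in every group, at sums of 564 to 828 CPM in Olig1 day 7 libraries and 10431 to 54086 CPM in GFP day 7 libraries. At day 14 the rod sums were 859 to 10630.1 CPM in Olig1 libraries and 3464 to 45474 CPM in GFP libraries. The 14 Müller glia markers summed to between 47227 and 148525 CPM over all 12 libraries, so that in every pool they exceeded the ganglion cell sum. The 10 bipolar cell markers summed to 236 to 521 CPM in Olig1 day 7 libraries and 1150.0 to 2179 CPM in GFP day 7 libraries, and to 217 to 517 CPM in Olig1 day 14 libraries and 1448 to 5505 CPM in GFP day 14 libraries. The 8 cone markers, with Pde6c at 0 in Olig1 day 14, summed to 20.6 to 109 CPM in Olig1 and 1404 to 1941 CPM in GFP at day 7, and to 41.9 to 745 CPM in Olig1 and 1169 to 5587 CPM in GFP at day 14. Bipolar and cone sums thus separated the virus groups at both days without overlap, as Impact did, with Olig1 lower. The 12 amacrine cell markers summed to 1504 to 3294 CPM in Olig1 and 304 to 652 CPM in GFP at day 7, without overlap, and to 618 to 1665 CPM in Olig1 and 326 to 855 CPM in GFP at day 14, with overlap. Chat was at 0 in every group but Olig1 day 7, Th in GFP day 7 and C1ql2 in GFP day 14. The 12 microglia and macrophage markers overlapped at day 7 (16.6 to 906 CPM in Olig1, 1.86 to 1103 CPM in GFP) and separated the groups at day 14, at 1.84 to 7.61 CPM in Olig1, where Cx3cr1 was at 0, and 25.0 to 6189 CPM in GFP. In bulk pools, fewer cells of a type and less RNA per cell cannot be told apart.

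Olig1 day 14 replicates 1 and 3 had ganglion cell marker sums of 281 and 236 CPM, inside the GFP day 14 range. Their amacrine cell marker sums were 955 and 1665 CPM, above all GFP day 14 libraries (326 to 855 CPM). Impact stood at 1082 and 1209 CPM in them, also above all GFP day 14 libraries. Replicate 2 of that group had a ganglion cell sum of 3854 CPM, an amacrine cell sum of 618 CPM and Impact at 1009 CPM. At day 7, high ganglion markers, low rod markers and high Impact came together in all 3 Olig1 libraries. Microglia markers summed to 4563 and 6189 CPM in GFP day 14 replicates 2 and 3 and plasma cell markers to 132557 CPM in replicate 3, and Impact was at 638 CPM in replicate 2 and 411 CPM in replicate 3. Replicate 1 of that group had 25.0 CPM of microglia markers, 5.76 CPM of plasma cell markers and 322 CPM of Impact. The part of cell makeup in the differences of Impact, between viruses at day 7 and day 14 and between days in GFP, was not tested.

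**Figure D2:**
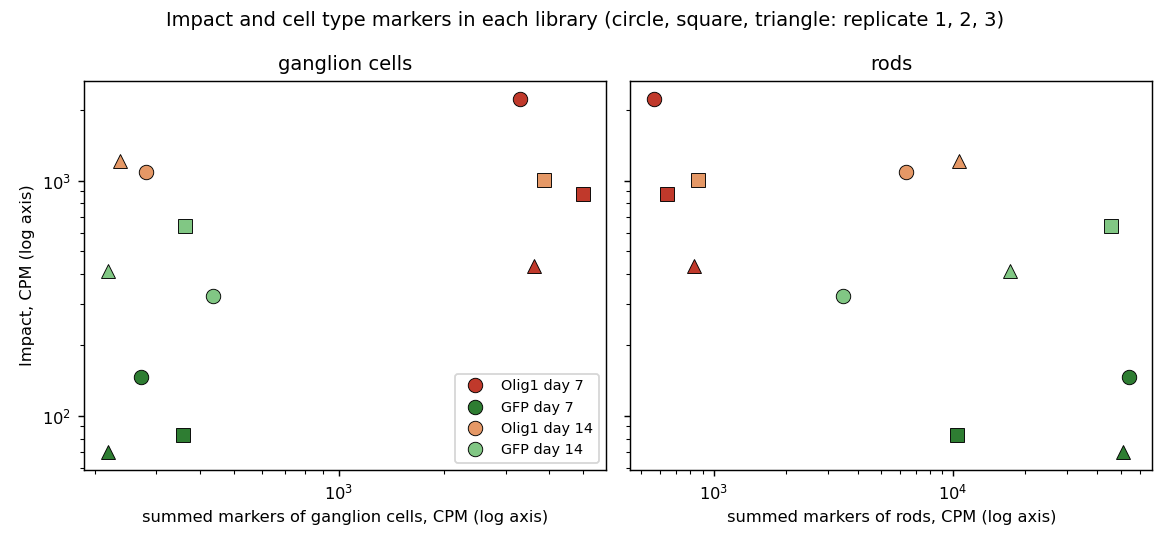
Impact in CPM (log axis) against the summed CPM (log axis) of 16 ganglion cell markers on the left and 12 rod markers on the right, 1 point per library. Olig1 day 14 replicates 1 and 3 sit at low ganglion sums (281 and 236 CPM) with Impact at 1082 and 1209 CPM. Their amacrine cell sums, not drawn, were 955 and 1665 CPM. The Olig1 day 7 libraries sit at high ganglion and low rod sums.

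Among the kinases, Eif2ak1 was lower in the Olig1 pools at day 7, and at day 14 the libraries of a group ranged widely. Eif2ak1 (ENSMUSG00000029613, chromosome 5, 143817788 to 143904251) had 5.44, 2.15 and 1.76 CPM in the Olig1 day 7 libraries, against 20.3, 20.6 and 36.8 CPM in the GFP day 7 libraries. The groups did not overlap, and the log2 difference was -2.89 ± 1.90 (SE), which edgeR did not call. At day 14 it had 0.0485, 28.7 and 10.3 CPM in Olig1 libraries, against 34.3, 0.109 and 2.38 CPM in GFP libraries. Both groups held a library near 0 and another near 30 CPM, and the log2 difference of 0.26 ± 1.77 became -1.12 without Olig1 day 14 replicate 2 and 3.05 without GFP day 14 replicate 1. Eif2ak1 shares 487 exon bases with Aimp2 on the opposite strand. The strand setting of the counting is not given, so how reads from the shared bases were counted, or whether they were set aside, is not known. The same holds for Eif2ak3 with Gm43292 (485 bases, 77 counts in all libraries) and Ddit3 with Mars (68 bases).

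Eif2ak3 (PERK; ENSMUSG00000031668, chromosome 6, 70844515 to 70905245) was not detected in any GFP pool at day 14. It had 13.6, 3.51 and 10.5 CPM in Olig1 day 7 libraries, against 0, 17.2 and 39.1 CPM in GFP day 7 libraries, which overlapped (log2 difference -0.99 ± 2.26). At day 14 the Olig1 libraries held 229, 5 and 1 counts, or 11.1, 0.204 and 0.0532 CPM, against 0 counts in each GFP library. The pooled day 14 level was at least 94.3-fold higher in Olig1, taking 3 counts over the GFP group as the limit that a count of 0 allows, but only at least 3.56-fold higher without Olig1 day 14 replicate 1, which carried 229 of the 235 counts. Within GFP, day 14 was at least 466-fold lower than day 7, where 2 of 3 libraries held the transcript; without GFP day 7 replicate 1, which had 0 counts, the bound was 714-fold, and without replicate 3 it was 218-fold. Intervals and limits of this kind cover counting error only, since reads amplified by PCR are not independent molecules.

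Eif2ak4, which encodes the GCN2 kinase that IMPACT restrains, overlapped between the viruses at both days. Eif2ak4 (ENSMUSG00000005102, chromosome 2, 118388618 to 118475234) had 2.17, 0.558 and 25.6 CPM in Olig1 day 7 libraries, against 25.1, 2.41 and 32.0 CPM in GFP day 7 libraries. At day 14 it had 1.55, 0.570 and 24.9 CPM in Olig1 libraries, against 0.235, 2.54 and 5.59 CPM in GFP libraries. Within 3 of the groups a single library or a pair stood far above the rest, so the libraries of a group differed more than the groups. The log2 differences were -1.05 ± 1.87 at day 7 and 1.44 ± 1.89 at day 14, which moved to -3.63 without Olig1 day 7 replicate 3 and turned to -1.63 without Olig1 day 14 replicate 3. Its mean log2 SD within groups, 1.83, was at percentile 92.2 of the tested genes, the highest of the 7.

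**Figure D3:**
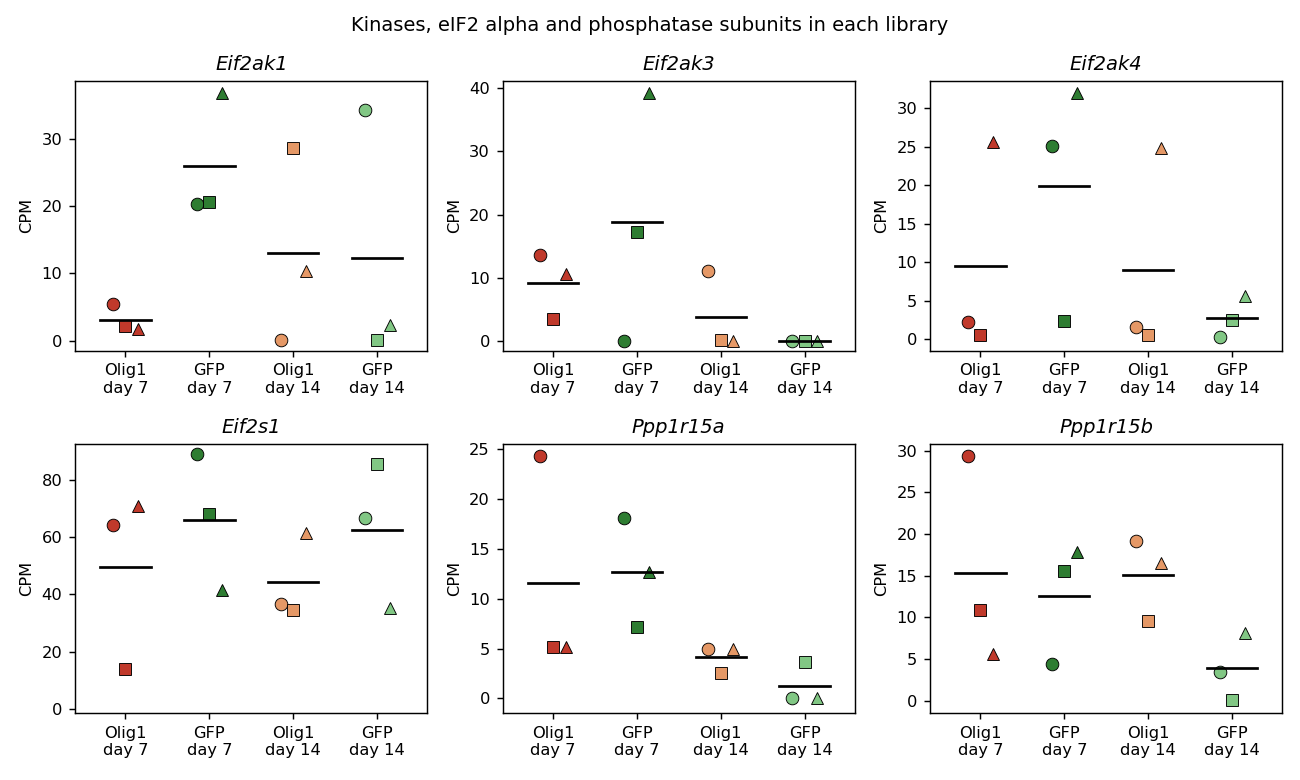
CPM of the 3 kinase genes, Eif2s1 and the phosphatase subunit genes in each library, with marker shape giving the replicate and bars the group mean (n = 3). Eif2ak1 is low in all Olig1 day 7 libraries (1.76 to 5.44 CPM), Eif2ak3 is at 0 in all GFP day 14 libraries, and Ppp1r15a is lower at day 14 than at day 7 for each virus.

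Summed per kilobase of exon, the 3 kinases came to 3.51, 1.04 and 5.49 CPM per kb in Olig1 day 7 libraries, against 6.95, 6.81 and 17.3 CPM per kb in GFP day 7 libraries. These sums leave out Eif2ak2, another eIF2 alpha kinase, which is described below. Without Eif2ak2 the sums did not overlap at day 7. Eif2ak2 had 3.46 CPM per kb in Olig1 day 7 replicate 3 and 0 in GFP day 7 replicate 1, so with it they overlap. At day 14 the sums of the 3 kinases were 2.06, 5.17 and 5.17 CPM per kb in Olig1 libraries, against 6.08, 0.359 and 1.17 CPM per kb in GFP libraries, and overlapped. Among these 3, no kinase led throughout. The largest share belonged to Eif2ak3 and Eif2ak4 in Olig1 day 7, and to Eif2ak1 and Eif2ak3 in GFP day 7. It belonged to all 3 in Olig1 day 14, and to Eif2ak1 and Eif2ak4 in GFP day 14. Eif2ak2 stood above the leader of the 3 in some libraries and below it in others. In GFP day 14 replicate 2, for example, it had 2.10 CPM per kb, against 0.340 for Eif2ak4.

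Eif2s1, the substrate (ENSMUSG00000021116, chromosome 12, 78861819 to 78887010), was the steadiest member after Impact. It had 64.1, 14.1 and 70.8 CPM in Olig1 day 7 libraries, against 88.8, 67.9 and 41.6 CPM in GFP day 7 libraries. The day 14 values were 36.8, 34.4 and 61.3 CPM in Olig1 libraries, against 66.6, 85.4 and 35.1 CPM in GFP libraries. The groups overlapped at both days, with 14.1 CPM in Olig1 day 7 replicate 2 as the lowest library. The log2 differences, -0.40 ± 0.67 at day 7 and -0.47 ± 0.67 at day 14, were within their errors.

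Of the phosphatase subunits, Ppp1r15a was lower at day 14 than at day 7 for each virus and Ppp1r15b was higher in Olig1 than in GFP at day 14, both without overlap of the libraries, and neither was called in these contrasts. Ppp1r15a (ENSMUSG00000040435, chromosome 7, 45522916 to 45526268, minus strand), the subunit that stress induces through Atf4, had 24.3, 5.11 and 5.14 CPM in Olig1 day 7 libraries, against 18.1, 7.12 and 12.6 CPM in GFP day 7 libraries. On day 14 Ppp1r15a had 4.94, 2.53 and 5.00 CPM in Olig1 libraries, against 0, 3.70 and 0.0418 CPM in GFP libraries. The virus groups overlapped at both days, with log2 differences of -0.02 ± 1.89 at day 7, a value whose sign changed between scalings (-0.13 to 0.02), and 1.83 ± 1.95 at day 14, which became 7.06 without GFP day 14 replicate 2, the library with nearly all counts of that group. For each virus, though, every day 14 library lay below every day 7 library, although in the Olig1 pools the highest day 14 value (5.00 CPM) and the lowest day 7 value (5.11 CPM) nearly touched. Day 14 over day 7 gave -1.26 ± 1.92 in Olig1 pools and -3.10 ± 2.04 in GFP pools, the second of which became -8.34 without GFP day 14 replicate 2. Within Olig1, 5 genes (0.0334%) were called, and Ppp1r15a was not among them.

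Ppp1r15b, the constitutive subunit (ENSMUSG00000046062, chromosome 1, 133131143 to 133139783), separated the virus groups at day 14. It had 19.1, 9.57 and 16.5 CPM in Olig1 day 14 libraries, against 3.49, 0.145 and 8.10 CPM in GFP day 14 libraries. The groups did not overlap, and the log2 difference was 1.72 ± 1.52, or 1.14 to 3.23 when any 1 library was left out. At day 7 it had 29.4, 10.9 and 5.61 CPM in Olig1 libraries, against 4.48, 15.6 and 17.8 CPM in GFP libraries, which overlapped (0.40 ± 1.48, or -0.13 to 0.83 when any 1 library was left out). The summed level of both subunits was 5.10, 2.57 and 4.66 CPM per kb in Olig1 day 14 libraries and 0.624, 1.28 and 1.46 CPM per kb in GFP day 14 libraries, again without overlap. At day 7 the sums were 13.5, 3.68 and 2.75 CPM per kb in Olig1 libraries, against 6.97, 5.21 and 7.48 CPM per kb in GFP libraries, and overlapped. The sums contain Ppp1r15b, so they are not a separate result.

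**Figure D4:**
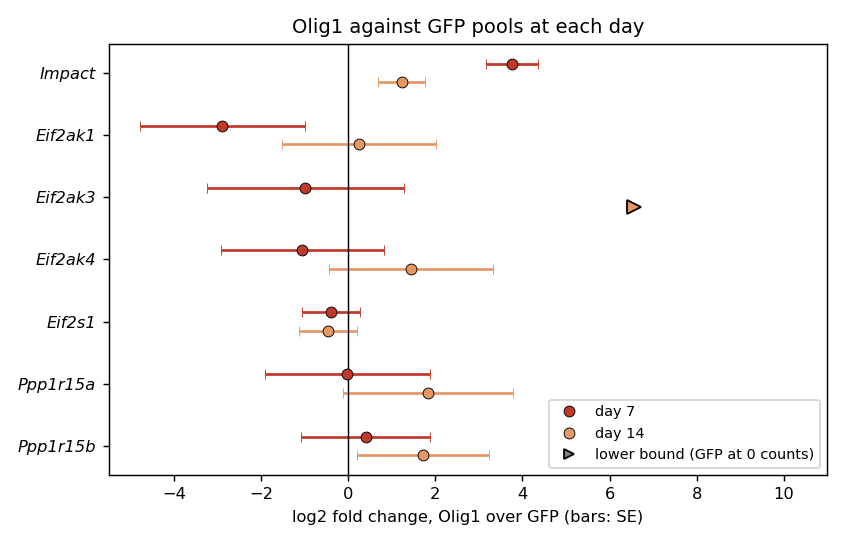
Fitted log2 difference, Olig1 over GFP, of the 7 genes at day 7 and day 14, with bars of 1 SE; the triangle is the lower bound of Eif2ak3 at day 14, where GFP had 0 counts. Impact is positive at both days (3.76 and 1.23), and the error bars of the other fitted values are mostly wider than the values.

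Counted over the 7, 1 was called at day 7 and 0 at day 14 in the main fit. Eif2ak3 was called in 1 of 11 alternatives at day 14, 1 of 17 for the interaction and 1 of 11 for time within GFP. At day 7, Impact was higher and Eif2ak1 lower in Olig1 without overlap, where 9.4% of all genes tested were higher and 9.01% lower in that way. At day 14, Impact, Eif2ak3 and Ppp1r15b were higher in Olig1 without overlap and 0 were lower, where 7.78% of all genes were higher and 4.12% lower in that way. Between the days, Impact was higher and Ppp1r15a lower in GFP without overlap (3.96% and 10.5% of all genes), and Ppp1r15a was lower in Olig1 (10.6%). Nothing is read from these counts, since the genes were chosen with these contrasts in view.

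Genes whose pattern over the 12 libraries was most like that of Impact were ranked among 12453 tested genes with a symbol, by the mean absolute difference of log2(CPM + 1) after each gene was centred on its own mean. Among the nearest were Arhgap44 (0.46), a GTPase activating protein, Gabbr1 (0.50), a GABA-B receptor subunit, Tubb5 (0.50), a beta tubulin, and Rcan2 (0.62), a calcineurin regulator. The median over all ranked genes was 1.68. Gabbr1, for example, ranged from 43.3 to 89.8 CPM in Olig1 day 7 libraries and 1.35 to 3.12 CPM in GFP day 7 libraries, and from 29.3 to 44.1 CPM in Olig1 day 14 libraries and 15.7 to 26.5 CPM in GFP day 14 libraries. None of the other members came near this likeness: Ppp1r15b was the closest at 1.29, and Eif2ak4 was at 2.37 and Eif2ak1 at 2.58. Nearest to Ppp1r15a were Bhlhe40 (0.39), a stress and clock repressor, Phka2 (0.41), a phosphorylase kinase subunit, and Casz1 (0.42), a zinc finger factor, with a median of 1.41 over all.

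The wider pathway was read from 4 lists with 79 other genes, 73 of them tested, and edgeR called 0 of the 73 at either day. At an unadjusted p under 0.05 there were 12 at day 7, where 13.9% of all genes were. By the same measure there were 4 at day 14, where 10.4% of all genes were. DESeq2 called 4 of the 73 at day 7 (Asns, Ddit3, Nars and Eif2s2) and 0 at day 14. Over all 14985 genes tested it called 954 at day 7 and 743 at day 14. The share called by DESeq2 was thus not higher in the lists than over all genes at either day. The lists were drawn up with earlier results of these libraries known, so their counts are not independent evidence. Atf4 itself, the factor made when eIF2 alpha is phosphorylated, had a log2 difference of 0.27 ± 1.11 at day 7 and -0.93 ± 1.12 at day 14, with overlapping groups. The sign at day 7 is not firm, as it turned to -0.22 with library totals as the scaling.

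Of 40 entries for Atf4 and its targets, 35 were tested (Sesn2, Aldh1l2, Fgf21, Gdf15 and Pycr1 were not), and at day 7 they had more positive than negative differences. There 22 had a positive and 13 a negative log2 difference, with a median of 0.86 (the same with genes at 0 counts in a group set to their bound) against -0.03 over all genes tested. Without overlap, 9 (25.7%) were higher and 2 (5.71%) lower in Olig1, beside the 9.4% and 9.01% of all genes. The 9 were the asparagine synthetase Asns, the tRNA synthetases Nars, Sars and Eprs, the stress factors Ddit3, Trib3 and Atf5, and the metabolic enzymes Phgdh and Gpt2. At day 14 the same list had 22 positive and 13 negative values, but a median of 0.25 against 0.09 over all genes, with 2 (5.71%) higher and 0 lower without overlap.

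Asns had 616, 308 and 98.9 CPM in Olig1 day 7 libraries, against 22.2, 16.3 and 17.8 CPM in GFP day 7 libraries. The groups stood well apart, and the log2 difference was 4.42 ± 0.87, higher in 3 of 3 libraries, with an edgeR adjusted p of 0.0537, just outside the calls; over 11 alternatives the adjusted p ran from 2.64e-05 to 0.251. At day 14 Asns had 86.2, 124 and 114 CPM in Olig1 libraries and 96.0, 15.9 and 134 CPM in GFP libraries (0.25 ± 0.76, with overlap). Ddit3, which encodes CHOP, had 326, 1622 and 235 CPM in Olig1 day 7 libraries, against 125, 17.6 and 79.0 CPM in GFP day 7 libraries. Its groups did not overlap either, with a log2 difference of 3.97 ± 0.92 and an edgeR adjusted p of 0.0975 (0.000948 to 0.629 over 11 alternatives), with replicate 2 far above the other Olig1 libraries. At day 14 Ddit3 had 63.6, 57.0 and 50.4 CPM in Olig1 libraries and 69.9, 59.9 and 20.2 CPM in GFP libraries, which overlapped (0.26 ± 0.81). The synthetases Nars (2.95 ± 0.84), Sars (2.61 ± 0.81) and Eprs (2.29 ± 0.87) had edgeR adjusted p of 0.200, 0.229 and 0.282 at day 7. Cth, of cysteine synthesis, went the other way at day 7 (-3.38 ± 2.46), and Chac1, a glutathione-degrading enzyme, had 0 counts in GFP day 14 and was at least 103-fold higher in Olig1 day 14, or 4.74-fold without Olig1 day 14 replicate 1. The Olig1 day 7 pools in which these targets were high are those with the high ganglion and low rod marker sums given above, and the part of that makeup was not tested.

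**Figure D5:**
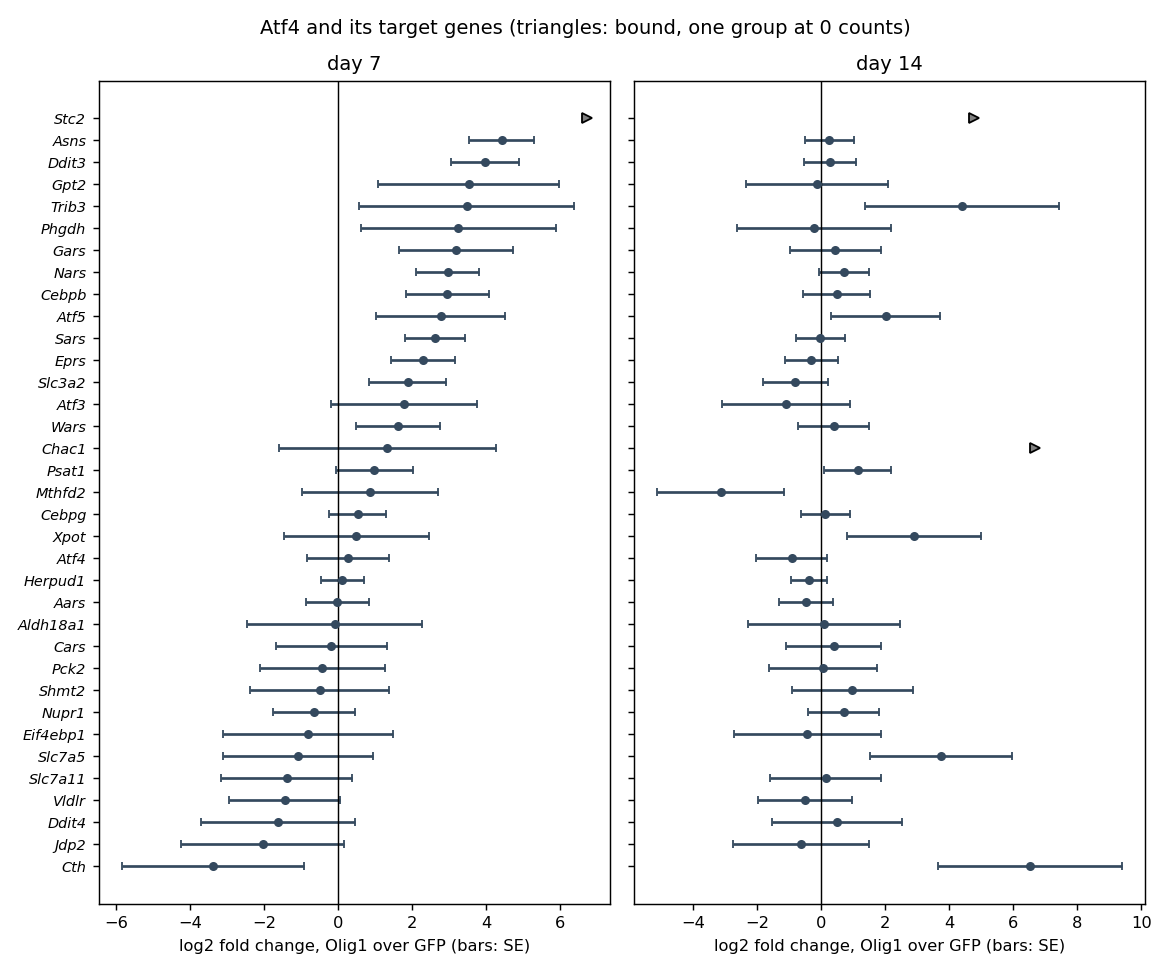
Log2 difference, Olig1 over GFP, of the 35 tested genes of the Atf4 list at day 7 and day 14, with bars of 1 SE and triangles for bounds where the GFP group had 0 counts. At day 7 Asns (4.42) and Ddit3 (3.97) stand at the top with narrow errors, while at day 14 both are near 0 (0.25 and 0.26).

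The promoters of Ppp1r15a and Asns are shown because each holds one of the motifs searched. RefSeq promoter windows on GRCm38.p6, from 250 bases before to 50 after the gene start, were matched for 5 of the 7 members (not Impact or Ppp1r15b), and both strands were searched. The cAMP response element TGACGTCA was found in 588 of 32851 windows (1.79%), among the members in Ppp1r15a alone, and in 0 of 33 Atf4 list genes with a window. The composite element TGATGNAAN, to which Atf4 binds with C/EBP factors, was found in 1299 windows (3.95%), in 14 of those 33 genes and in 0 members. The windows follow 5′ to 3′ on the strand of each gene, with the motif in capitals.
Ppp1r15a, chr7:45526219-45526518, minus strand: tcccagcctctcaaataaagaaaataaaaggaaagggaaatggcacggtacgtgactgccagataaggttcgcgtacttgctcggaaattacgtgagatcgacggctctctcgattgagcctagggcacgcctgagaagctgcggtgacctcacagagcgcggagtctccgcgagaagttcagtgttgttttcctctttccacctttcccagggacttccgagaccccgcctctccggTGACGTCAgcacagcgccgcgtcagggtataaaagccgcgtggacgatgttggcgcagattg
Asns, chr6:7693160-7693459, minus strand: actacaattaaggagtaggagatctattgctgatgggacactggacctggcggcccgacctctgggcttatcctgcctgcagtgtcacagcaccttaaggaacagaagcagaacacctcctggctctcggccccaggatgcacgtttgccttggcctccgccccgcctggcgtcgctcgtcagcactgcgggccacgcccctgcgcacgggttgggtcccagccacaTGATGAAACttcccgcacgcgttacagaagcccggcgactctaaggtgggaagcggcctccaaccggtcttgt
The element of Ppp1r15a starts 12 bases before the gene start and that of Asns, TGATGAAAC, starts 23 bases before it. A match describes the letters only and says nothing of binding in these cells.

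The eIF2 and eIF2B subunit genes and the partners of the kinases and phosphatase were divided between the directions at both days. Of the 8 subunit genes, 3 were positive and 5 negative at day 7 (median -0.21), and 5 and 3 at day 14 (median 0.30). Without overlap, 1 (12.5%) was higher and 0 were lower at day 7, beside 9.4% and 9.01% of all genes. At day 14, 0 were higher and 2 (25.0%) lower without overlap, beside 7.78% and 4.12% of all genes. Eif2s2, the beta subunit of eIF2, was higher in Olig1 day 7 without overlap, at 172, 336 and 248 CPM, against 52.5, 94.3 and 73.7 CPM in GFP day 7 (2.09 ± 0.60, edgeR adjusted p 0.200, 0.0246 to 0.648 over 11 alternatives). Eif2s3y, the Y-linked gamma subunit gene, was lower in Olig1 day 14 without overlap, at 44.3, 20.9 and 40.7 CPM, against 179, 76.2 and 89.6 CPM in GFP day 14 (-1.70 ± 0.67, edgeR adjusted p 0.438). Eif2b3 and Eif2b1, subunits of the exchange factor eIF2B that phosphorylated eIF2 blocks, overlapped between the virus groups at both days, with 1.23 ± 0.78 for Eif2b3 at day 7 and 2.34 ± 1.45 for Eif2b1 at day 14.

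Of the 12 partner genes, 4 were positive and 8 negative at day 7 (median -0.13), and 6 and 6 at day 14 (median -0.02). Eif2ak2, the kinase PKR that senses double-stranded RNA, overlapped at both days (-0.87 ± 1.88 and -0.77 ± 1.87), as did Gcn1l1, which encodes the GCN1 that IMPACT and GCN2 share (0.35 ± 1.69 and 1.61 ± 1.73). Prkra, the activator of PKR, had 58.3, 1470.3 and 56.9 CPM in Olig1 day 7 libraries, against 17.2, 0.931 and 37.8 CPM in GFP day 7 libraries. The groups did not overlap, but replicate 2 of Olig1 stood far above the others: the log2 difference of 5.62 ± 2.08 (edgeR adjusted p 0.284) became 1.60 without it. Of the catalytic subunits of protein phosphatase 1, Ppp1cc had -1.38 ± 0.64 at day 7 and Ppp1cb 0.76 ± 0.67 at day 14, with overlapping groups.

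Among the ER chaperone and Ire1/Atf6 branch genes, which mark the arms of ER stress that bypass eIF2 alpha, 18 of 19 were tested (not Derl3). At day 7, 10 were positive and 8 negative (median 0.16, against -0.03 over all genes tested). At day 14, 4 were positive and 14 negative (median -0.53, against 0.09). Without overlap, 1 (5.56%) was higher and 1 (5.56%) lower at day 14, beside 7.78% and 4.12% of all genes. Pdia6, a disulfide isomerase, was lower in Olig1 day 14 without overlap, at 79.1, 209 and 82.5 CPM, against 439, 280.5 and 356 CPM in GFP day 14 (-1.56 ± 0.58, edgeR adjusted p 0.438). Manf, a secreted ER stress factor, had 28.1, 215 and 117 CPM in Olig1 day 7 libraries, against 35.1, 50.6 and 49.6 CPM in GFP day 7 libraries, which overlapped (1.87 ± 0.86). Ern1, which encodes IRE1, had 208 counts over the Olig1 day 7 libraries and 1 in GFP day 7. After scaling by the totals the ratio was 246, or 63.4 without Olig1 day 7 replicate 1. Its 95% exact counting interval, from 43.7 to 9771, leaves out the spread between libraries. The fitted log2 difference was 7.28 ± 3.26 (edgeR adjusted p 0.336). At day 14 Ern1 went the other way, with 20 counts in Olig1 and 362 in GFP (-3.70 ± 2.75, with overlap). Xbp1, whose mRNA IRE1 splices, overlapped at both days (1.02 ± 0.73 and -1.08 ± 0.74).

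As a check of the vector, Olig1 had 1029, 249 and 723 CPM in Olig1 day 7 libraries, against 0.320, 0 and 0.351 CPM in GFP day 7 libraries. At day 14 it had 56.4, 520 and 120 CPM in Olig1 libraries, against 0, 0.0362 and 0.251 CPM in GFP libraries. The labels and the transgene matched in all 12 libraries, with edgeR adjusted p of 0.0113 at day 7 (1.61e-19 to 0.0798 over 11 alternatives) and 0.0276 at day 14 (2.30e-16 to 0.199). At day 7 the call was lost when GFP replicate 1 (adjusted p 0.0798) or GFP replicate 3 (0.0736) was left out of the edgeR fit. At day 14 it was lost when GFP replicate 1 (0.0670), GFP replicate 2 (0.199) or Olig1 replicate 3 (0.0859) was left out. Total counts ran from 12534515 to 27602459 a library, 10129 to 17244 genes had a count, and the limit that a count of 0 allows, 3 counts of the total, was 0.109 to 0.239 CPM. Libraries of the same group correlated at 0.794 to 0.880 and those of different groups at 0.715 to 0.885 across genes (log2(CPM + 1)), ranges that overlap.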

How the data were processed

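RNA was measured in 12 pools as raw counts per Ensembl gene, which the authors made with HISAT2 and HTSeq on mm10, with FastQC for quality, per the submitters' processing notes, from cDNA amplified by SMART-Seq HT per the labels' protocols. For their tool versions, gene annotation and use of strand, the sources used here give nothing. Counts of all 12 libraries were taken from the deposited series table, and the per-sample files were read only as a check. The per-sample files of 4 libraries ended early, and 0 genes differed among those present in both. Symbols, coordinates and exon lengths came from GENCODE M21. Counts were fitted with edgeR 4.0.16 (quasi-likelihood, robust, TMM, filterByExpr minimum count 10, prior count 0.125) in R 4.3.3, on 4 groups of 12 libraries with no covariate, and p-values were adjusted by Benjamini-Hochberg over 14985 genes with calls at 0.05. SE is the size of the log2 difference over the root of F. Figures were drawn in matplotlib 3.10.9 and tables made in pandas 2.3.3 (Python 3.11.15).

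The members and lists were chosen with earlier results of these data known. Named by rule were all members; Atf4, Ddit3, Eif2ak2, Gcn1 (Gcn1l1 in the annotation) and Olig1; for each list and day up to 4 called genes or, failing those, the 2 of smallest p; and the nearest genes to Impact and Ppp1r15a, of which 1 is not reported here. Nars, Sars, Eprs, Trib3, Atf5, Phgdh and Gpt2 were named after their values were seen. Alternatives were DESeq2 size factors, library totals, no filter, a replicate block, the DESeq2 1.42.0 Wald test and leaving out each library. The labels speak of several batches without giving each library's, so batch could not enter a fit.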

Additional observations from a re-analysis of the deposited data

How the results depend on the processing

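The genes called at day 7 (34) became 218 with no filter on low counts, 954 with DESeq2 and 1 to 58 when a library was left out. Those at day 14 (6) became 23 with no filter, 743 with DESeq2, 1 with the replicate block and 0 to 6 with a library left out. The interaction (0) gave 40, 527, 1 and 0 to 1 in the same order. Time within GFP (0) gave 1 with library totals, 13 with no filter and 646 with DESeq2, and time within Olig1 (5) gave 0 with DESeq2 size factors, 59 with no filter, 626 with DESeq2 and 0 to 10 with a library left out. Pathway genes called at day 7 (0) became 1 with library totals (Asns), 4 with no filter, 4 with DESeq2 and 0 to 2 with a library left out. The direction reversed for Atf4 at day 7 (-0.22 with library totals; -0.82 to 1.76 over left-out libraries) and Eif2s3y at day 7 (-0.063; -0.29 to 0.88). With a library left out, values crossed 0 at day 14 for Ddit3 (-0.035 to 0.48), Eif2b3 (-0.11 to 0.55), Prkra (-0.10 to 1.50), Ppp1cb (-0.058 to 1.06), Asns (-0.26 to 1.13), Cth (-3.70 to 10.22), Eif2ak1 (-1.12 to 3.05) and Eif2ak4 (-1.63 to 2.79), and at day 7 for Eif2b1 (-0.68 to 0.038), Ppp1cb (-0.31 to 0.58), Chac1 (-3.42 to 6.43), Ppp1r15a (-0.86 to 0.37) and Ppp1r15b (-0.13 to 0.83); the cause was not tested. The median of all genes shifted by -0.11 and -0.33 for time within GFP and by -0.18 and -0.20 for time within Olig1 under DESeq2 size factors and library totals. Impact kept its direction in all 11 alternatives at day 7 (3.27 to 4.19) and at day 14 (0.96 to 1.42). Deviations of same-numbered libraries correlated at -0.065 to 0.044 across genes, and the libraries were not treated as pairs in the main fit. A correlation over all genes cannot show whether same-numbered libraries share a batch that touches some genes only. With the replicate block 29, 1, 1, 0 and 5 genes were called at day 7, at day 14, for the interaction and for time within GFP and within Olig1. Counts near the floor of 3 limit Eif2ak3 and Ppp1r15a at day 14. They also touch Eif2ak1 there (1 count in Olig1 replicate 1 and 3 in GFP replicate 2). Ppp1r15b had 4 counts in GFP day 14 replicate 2, and Eif2ak4 had 6 in GFP day 14 replicate 1.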
